A study of Mus musculus with 6 samples.

Results

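The genes that make, carry and accompany secretory immunoglobulin A were examined in intestinal adenomas of 2 mouse genotypes. They are Igha, Igkc, Jchain, Mzb1 and Tnfrsf17, which are used by plasma cells, Ighm, Cd79a and Ms4a1, which are used by B cells, and Pigr, which is used by the epithelium. These 9 genes were given by symbol, matched through their Ensembl identifiers to the GENCODE M21 annotation, and all 9 were found among the 34866 genes of the count table. The adenomas were excised from heterozygous Apc1322T/+ mice (3 libraries) and ApcMin/+ mice (3 libraries), all of the strain C57BL/6J and between 100 and 120 days old, with no treatment given in the labels. Both groups carry 1 germline mutation of Apc, and both alleles encode a truncated Apc protein, of which Apc1322T is the longer and partly functional one. The study's methods state that several RNA extractions from 1 mouse were typically pooled, and the labels do not say which mouse or how many adenomas stand behind a library. The p-values below therefore measure the spread between libraries, which may be in part technical. Normal intestine was not analysed here, so no adenoma level is set against a tissue without tumour.

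IgA is the main antibody of the gut. Plasma cells in the lamina propria, the connective tissue under the epithelium, join alpha heavy chains and light chains into IgA, and J chain links IgA molecules into dimers. The polymeric immunoglobulin receptor, encoded by Pigr in epithelial cells, binds such polymers at the basal side, carries them through the cell and releases them into the lumen with a piece of itself, the secretory component. IgM is exported by the same route, because alpha and mu heavy chains end in a similar tailpiece to which J chain is attached. Plasma cells arise from B cells, which they resemble little: they switch off Ms4a1 (CD20) and other surface molecules of B cells and fill with secretory machinery.

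The tailpieces are shown because they are the part that makes Igha and Ighm, but not the IgG genes, partners of Jchain and Pigr. They are the last 54 coding bases of the secreted transcripts in GENCODE M21 (GRCm38), both on the minus strand, at chr12:113258771-113258824 for Igha and at chr12:113420870-113420923 for Ighm, and the capitals mark the cysteine codon before the last codon, which bonds with J chain. The sequences have the same base at 35 of the 54 positions.
Igha tailpiece: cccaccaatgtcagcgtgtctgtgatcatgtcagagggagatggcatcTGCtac
Ighm tailpiece: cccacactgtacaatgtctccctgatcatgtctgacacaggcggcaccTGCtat

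The promoters of Pigr and Jchain are shown as the start regions of the receptor and of the protein that its cargo needs, since levels of the 2 genes followed different patterns over the libraries. RefSeq promoters on GRCm38.p6, from 250 bases before to 50 bases after the start, were matched for 4 of the 9 genes (Jchain, Pigr, Tnfrsf17 and Cd79a). The Pigr promoter lies at chr1:130826434-130826733 on the plus strand, and the Jchain promoter at chr5:88527848-88528147 on the minus strand. Capitals mark the E-box CACGTG, which begins 71 bases before the Pigr start. It was searched on both strands, together with the octamer ATGCAAAT of immunoglobulin promoters and an interferon response core, GAAANNGAA. The E-box is in 7.15%, the octamer in 1.74% and the interferon core in 8.56% of 32851 mouse promoters of the same length. No other match was in the Pigr promoter and none in that of Jchain. These matches describe letters only.
Pigr promoter: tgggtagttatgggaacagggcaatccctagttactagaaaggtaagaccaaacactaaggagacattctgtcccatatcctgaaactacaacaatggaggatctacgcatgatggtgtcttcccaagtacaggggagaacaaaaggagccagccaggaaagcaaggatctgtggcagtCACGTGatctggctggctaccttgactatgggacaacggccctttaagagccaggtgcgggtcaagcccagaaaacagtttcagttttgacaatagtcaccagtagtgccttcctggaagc
Jchain promoter: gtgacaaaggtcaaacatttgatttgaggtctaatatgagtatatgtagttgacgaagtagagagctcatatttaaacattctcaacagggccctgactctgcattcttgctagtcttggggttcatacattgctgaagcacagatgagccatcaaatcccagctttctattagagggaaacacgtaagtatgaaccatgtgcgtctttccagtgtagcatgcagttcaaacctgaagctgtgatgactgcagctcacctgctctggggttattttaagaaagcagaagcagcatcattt

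Levels are given as CPM (estimated counts scaled to a common library total) after TMM normalisation, a scaling that sets the bulk of genes level between libraries. The libraries held between 23132461 and 33518324 estimated counts, at which 3 counts, taken as the smallest signal, were worth between 0.0837 and 0.142 CPM. This limit, like the intervals of shares below, covers counting error alone. Every pair of libraries differed far beyond sampling noise, with a chi-square statistic per gene of at least 17.9. Of 12 markers of intestinal epithelium, the tissue named by the labels, none was at 0 in any library, and their summed level lay between 13900 and 21300 CPM. In bulk tissue, fewer cells of a type and less RNA per cell cannot be told apart, which applies to every gene below.

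IgA heavy chain RNA was among the most abundant RNAs of these adenomas. Igha ranked 11th, 31st and 22nd of all genes by estimated counts in Apc1322T replicates 1, 2 and 3, and 28th, 44th and 5th in ApcMin replicates 1, 2 and 3. The 418 annotated immunoglobulin genes together held between 0.297% of the library in ApcMin replicate 2 and 1.11% in ApcMin replicate 3. Pigr ranked between 29 and 138 and below Igha in all 6 libraries.

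Comparing genes with each other requires a correction for length, and for the heavy chain genes it depends on which length is taken. On the scale of CPM per kilobase of exonic sequence, the median level over the 6 libraries was 2420 for Igkc, 940 for Igha, 415 for Pigr and 159 for Jchain. With the length of the first listed transcript, which for Igha is the secreted form of 1100 bases in place of 2668 exonic bases, Igha stood at 2280, next to Igkc at 2420, followed by Pigr at 434 and Jchain at 287. Igha and Igkc thus did not differ in level beyond their range over libraries on the second scale (1340 to 5300 for Igha and 1450 to 4790 for Igkc). The remaining genes were far lower, with medians per exonic kilobase of 4.19 for Mzb1, 3.03 for Ighm, 2.50 for Cd79a, 0.649 for Tnfrsf17 and 0.0396 for Ms4a1. The ranges of Mzb1 (2.78 to 9.07), Ighm (2.67 to 23.1) and Cd79a (2.15 to 5.44) overlapped, and Tnfrsf17 (0.445 to 1.01) and Ms4a1 (0.0178 to 0.117) each lay below. Within libraries, Mzb1 was above Cd79a in each of the 6, whereas the order of Ighm and either gene changed between libraries.

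**Figure D1:**
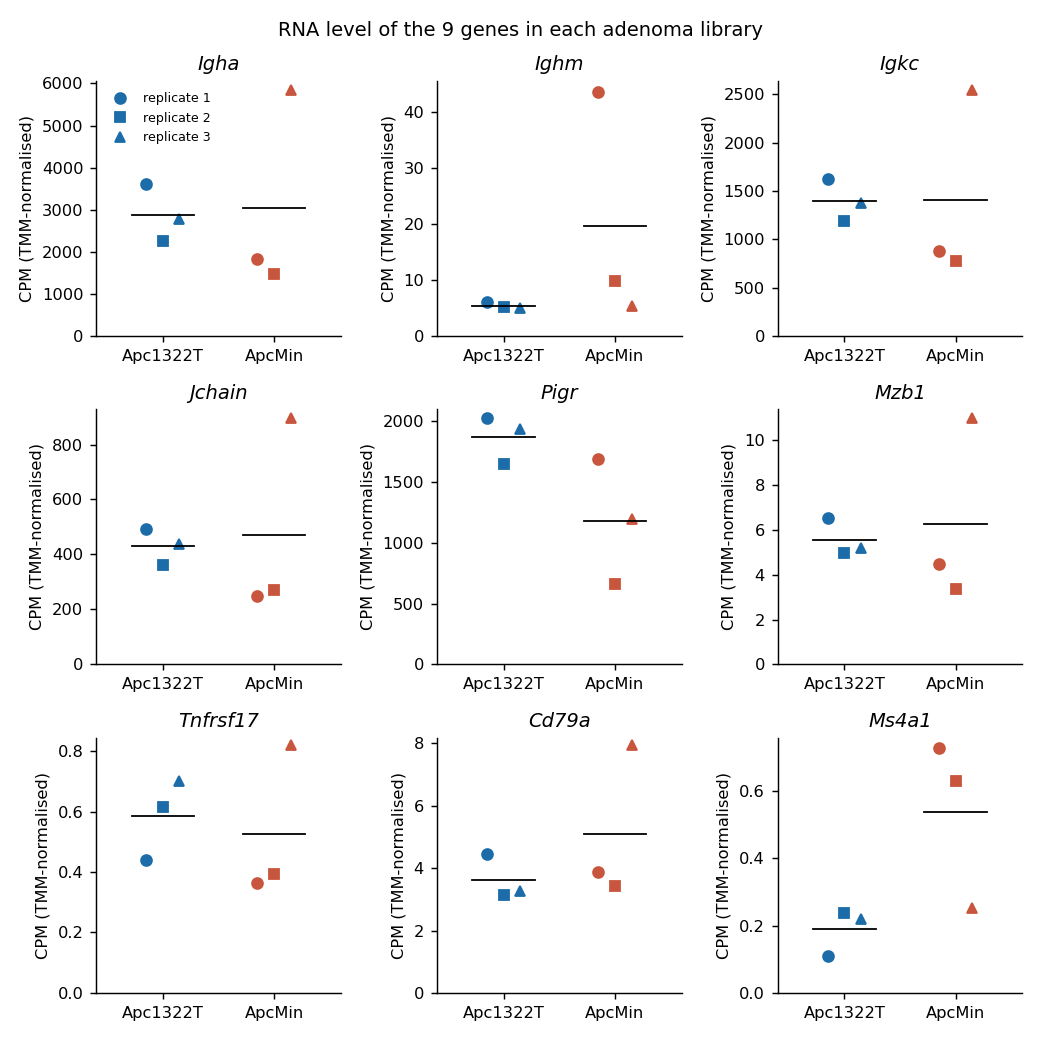
Level of the 9 genes in each library (vertical axis, TMM-normalised CPM, a separate linear scale from 0 in each panel; symbols, replicates 1 to 3; bars, group means of 3 libraries). ApcMin replicate 3 was the highest library for Igha (5840 CPM), Igkc, Jchain, Mzb1, Tnfrsf17 and Cd79a, ApcMin replicate 1 was the highest for Ighm (43.6 CPM), and ApcMin replicate 2 was the lowest for Pigr (663 CPM).

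The question put to these genes by the design was whether adenomas of the 2 Apc alleles differ in them. Of the 9 genes, 8 had enough counts to be tested, and 0 of the 8 passed an adjusted p under 0.01 in edgeR's quasi-likelihood test. The background was 0.00% of 16536 genes, so this threshold separated nothing in the whole comparison. At an unadjusted p under 0.05, 7.49% of all genes tested were higher and 7.60% were lower in ApcMin, against 0 of the 8 in either direction. With DESeq2, which the study used, 1.12% of 17346 genes had an adjusted p under 0.01 in the Wald test and again 0 of the 9 members, the smallest adjusted p being 0.234 for Pigr.

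The alpha heavy chain gene Igha (ENSMUSG00000095079, chr12:113254830-113260236, minus strand) stood at 3620, 2250 and 2770 CPM in Apc1322T replicates 1, 2 and 3 and at 1830, 1470 and 5840 CPM in ApcMin replicates 1, 2 and 3. ApcMin adenomas thus held both the lowest libraries and the highest, and Apc1322T lay between them. The means were 2880 ± 691 CPM (SD, n = 3) and 3050 ± 2420 CPM (SD, n = 3). The log2 fold change, ApcMin over Apc1322T, was 0.08 (SE 0.55, 95% interval -1.24 to 1.41, adjusted p = 0.95, edgeR), an interval that leaves room for a change of over 2-fold either way. Without ApcMin replicate 3 the log2 fold change was -0.80 (adjusted p between 0.475 and 0.532 for Igha, Igkc, Jchain and Mzb1 without that library).

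The kappa light chain gene Igkc (ENSMUSG00000076609, chr6:70726435-70726966, plus strand, a single exon) had the same order of libraries at its ends. It stood at 1620, 1190 and 1380 CPM in Apc1322T and at 884, 773 and 2550 CPM in ApcMin replicates 1, 2 and 3. The log2 fold change was 0.00 (SE 0.47, 95% interval -1.14 to 1.15, adjusted p = 0.997) and -0.76 without ApcMin replicate 3.

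Jchain (ENSMUSG00000067149, chr5:88519809-88527891, minus strand), which encodes the linker of IgA dimers and IgM pentamers, stood at 492, 360 and 439 CPM in Apc1322T and at 248, 269 and 895 CPM in ApcMin. Again ApcMin replicates 1 and 2 lay below every Apc1322T library and replicate 3 above all of them. Its log2 fold change was 0.13 (SE 0.52, 95% interval -1.12 to 1.38, adjusted p = 0.916) and -0.74 without ApcMin replicate 3.

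Mzb1 (chromosome 18, minus strand) encodes a chaperone of the endoplasmic reticulum that assists antibody secretion. It stood at 6.52, 4.99 and 5.21 CPM in Apc1322T and at 4.49, 3.38 and 11.0 CPM in ApcMin. This is the pattern of Igha at a far lower level in CPM. Its log2 fold change, ApcMin over Apc1322T, was 0.18 (SE 0.45, adjusted p = 0.863) and -0.50 without ApcMin replicate 3.

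Tnfrsf17 (chr16:11313812-11320074, plus strand) encodes BCMA, a survival receptor of plasma cells. With 10 to 26 counts per library it was measured with little precision, at 0.44, 0.617 and 0.70 CPM in Apc1322T and 0.363, 0.393 and 0.821 CPM in ApcMin. ApcMin replicates 1 and 2 were again the lowest and replicate 3 the highest. Its log2 fold change was -0.15 (SE 0.47, 95% interval -1.27 to 0.98, adjusted p = 0.897), and -0.62 without ApcMin replicate 3.

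Igha, Igkc, Jchain and Mzb1 kept nearly fixed proportions while their level moved from library to library. Igha varied 3.96-fold between the lowest and the highest library, Igkc 3.29-fold, Jchain 3.6-fold and Mzb1 3.26-fold. Expressed as a percentage of the Igha counts of the same library, Igkc lay between 43.6% and 53.1%, a 1.22-fold range, and Jchain between 13.6% and 18.2%, a 1.34-fold range. The range was 1.36-fold for Mzb1, 1.95-fold for Cd79a and 2.26-fold for Tnfrsf17, against 4.48-fold for Pigr, 14.0-fold for Ms4a1 and 25.7-fold for Ighm. These percentages compare counts of genes of unequal length and are not ratios of molecules. The log2 ratio of Jchain to Igha was -2.73 ± 0.13 (SD, n = 3) in Apc1322T and -2.68 ± 0.21 (SD, n = 3) in ApcMin, a difference of 0.0454 (exact two-sided permutation test over 20 assignments, p = 1, adjusted over the 5 ratios tested p = 1). With 3 libraries against 3, no p under 0.10 can be reached.

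A second measure of likeness was the root mean square difference between 2 genes' log2 CPM after centring each over the 6 libraries. From Igha, this distance was 0.107 for Igkc, 0.147 for Jchain and 0.172 for Mzb1, then 0.381 for Cd79a, 0.464 for Tnfrsf17, 0.700 for Pigr, 1.28 for Ms4a1 and 1.55 for Ighm. Among 16371 other genes, outside the members and the immunoglobulin loci, the nearest was Pramel5 at 0.204, followed by Gm29609, Gm10651, Pirt and Cttnbp2, the last at 0.273. Igkc, Jchain and Mzb1 were therefore each nearer to Igha than any of these genes. Pramel5, Gm29609 and Gm10651 had under 3 CPM in every library. These values are descriptions over 6 libraries. ApcMin replicate 3 lay furthest from the gene's mean for Igha (1.13), Igkc (0.98), Jchain (1.13) and Mzb1 (0.99). For Ighm (2.35) and Ms4a1 (1.07), ApcMin replicate 1 lay furthest.

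**Figure D2:**
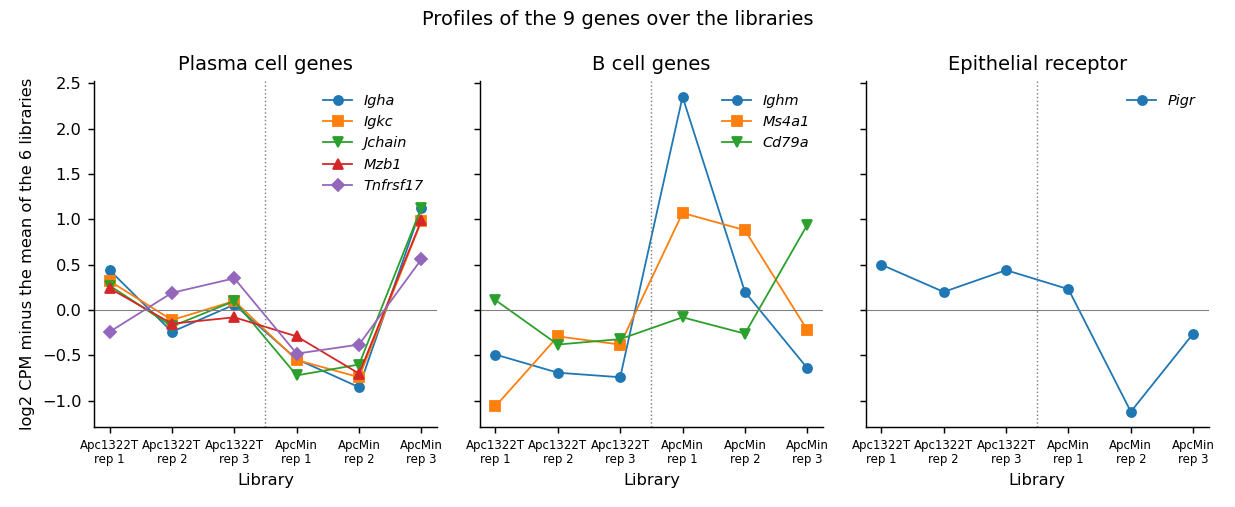
Profiles over the 6 libraries (horizontal axis; dotted line, border between genotypes) as log2 CPM minus the gene's mean over libraries (vertical axis). Igha, Igkc, Jchain and Mzb1 ran together, from -0.85 to 1.13 for Igha, with their peak in ApcMin replicate 3; Ighm peaked at 2.35 in ApcMin replicate 1, Ms4a1 was high in ApcMin replicates 1 and 2, and Pigr was low in ApcMin replicate 2.

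The other 18 plasma cell genes listed for this comparison, transcription factors and parts of the secretory machinery, did not follow as one group. All 18 were tested, 0 were called in either direction, 9 log2 fold changes were positive and 9 negative, and their median was -0.05 against 0.02 over all genes tested. Pou2af1, a coactivator of antibody genes, shared with Igha the peak in ApcMin replicate 3, with 8.28, 4.75 and 5.07 CPM in Apc1322T and 6.06, 4.91 and 16.1 CPM in ApcMin, and had the largest log2 fold change of the list (0.58, SE 0.50, adjusted p = 0.58). Irf4, a transcription factor of plasma cells, stood at 5.40 CPM in ApcMin replicate 3 and between 1.09 and 2.60 CPM in the other 5 libraries. Derl3, which acts in the degradation of misfolded secretory proteins, stood at 5.21 CPM there and between 1.62 and 3.41 CPM elsewhere. Genes of the list that epithelial cells also use varied little: Xbp1, the driver of the secretory programme, lay between 186 and 235 CPM, and Sdc1, the surface marker CD138, between 338 and 465 CPM. Cd38, a surface enzyme, was the lowest of the list, with a log2 fold change of -0.43 (SE 0.18, adjusted p = 0.334).

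The isotypes of the adenomas were almost entirely IgA. Of the estimated counts of the 8 heavy chain constant genes, Igha held 99.26% in Apc1322T replicate 1 (95% exact binomial interval 99.20 to 99.31), 99.38% in replicate 2 (99.31 to 99.45) and 99.45% in replicate 3 (99.39 to 99.51). In ApcMin it held 96.97% in replicate 1 (96.83 to 97.09), 97.40% in replicate 2 (97.24 to 97.56) and 98.93% in replicate 3 (98.88 to 98.98). Every ApcMin library lay below every Apc1322T library. The means were 99.36% ± 0.10 and 97.77% ± 1.03 (SD, n = 3 each), a difference of -1.60 percentage points (exact two-sided permutation p = 0.10, the smallest possible, adjusted over the 5 ratios p = 0.50).

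The rest was made up differently in each ApcMin library. Ighm held 2.308% of heavy chain counts in ApcMin replicate 1 (2.196 to 2.424) and 0.6435% in replicate 2 (0.5661 to 0.7284), but 0.09156% in replicate 3 (0.07836 to 0.1064). In Apc1322T it held 0.165% (0.1407 to 0.1922), 0.2308% (0.1897 to 0.2781) and 0.1808% (0.1493 to 0.217). Ighg1 was the largest minor isotype in ApcMin replicates 2 and 3, with 1.277% (1.167 to 1.394) and 0.6972% (0.6599 to 0.7359). In Apc1322T, Ighg1 held 0.4305% (0.3907 to 0.4732), 0.2119% (0.1726 to 0.2574) and 0.2123% (0.178 to 0.2512). It was the largest minor isotype in Apc1322T replicate 1 and, with an interval that overlapped that of Ighm, in replicate 3. Ighg2b was higher in every ApcMin library, at 6.11, 7.50 and 15.8 CPM against 5.24, 3.66 and 3.89 CPM (log2 fold change 1.20, SE 0.39, adjusted p = 0.287). Of the 10 other constant genes listed, 5 were tested and 0 called, and Iglc4 had no count in any library. Without overlap, 2 of the 10 (20%) were higher in ApcMin and 0 lower, beside 9.06% and 7.10% of genes with a count. These were Ighg2b and Ighg2c, the latter with 3, 0 and 2 counts in Apc1322T and 21, 9 and 19 counts in ApcMin. The 5 tested had positive log2 fold changes, from 0.31 for Iglc2 to 1.37 for Iglc3, and all had adjusted p of at least 0.287. The IgG genes are near-identical in parts, as are the lambda genes, so reads may have been divided between them with error.

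Among light chains, Igkc held 94.80% (94.59 to 95.00), 97.82% (97.64 to 98.00) and 95.64% (95.41 to 95.86) of the counts of 5 constant genes in Apc1322T replicates 1 to 3. In ApcMin it held 95.28% (95.05 to 95.51), 95.05% (94.75 to 95.34) and 89.78% (89.58 to 89.98). The difference of means was -2.71 percentage points (exact permutation p = 0.30, adjusted p = 0.50), and -0.918 without ApcMin replicate 3. In that library, the one richest in IgA, Iglc1 alone held 8.658% (8.475 to 8.844) of light chain counts, against 1.501% to 4.837% in the other 5.

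**Figure D3:**
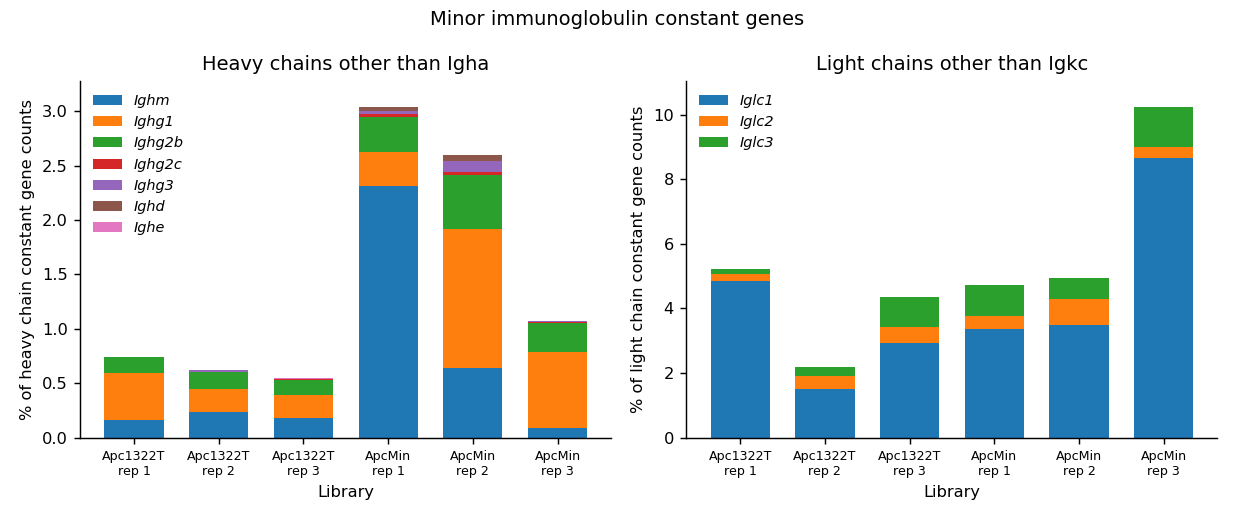
Minor constant genes as stacked shares of the counts of heavy (left) and light (right) chain constant genes, in percent, by library. Ighm took 2.308% in ApcMin replicate 1 and 0.09156% in replicate 3, and Iglc1 took 8.658% in ApcMin replicate 3.

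Ighm (ENSMUSG00000076617, chr12:113418558-113422730, minus strand), the mu heavy chain of naive B cells and of IgM plasma cells, stood at 6.01, 5.22 and 5.03 CPM in Apc1322T and at 43.6, 9.74 and 5.40 CPM in ApcMin. ApcMin replicates 1 and 2 lay above all Apc1322T libraries and replicate 3 among them, so the groups overlapped. This gave a log2 fold change of 1.85 (SE 0.77, 95% interval -0.02 to 3.73, unadjusted p = 0.0518, adjusted p = 0.334, edgeR). It was 0.48 without ApcMin replicate 1 and 2.30 without ApcMin replicate 3. The library with the most Ighm was not the library with the most Igha or Jchain.

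Ms4a1 (chr19:11249675-11266241, minus strand) encodes CD20 of B cells, which plasma cells lack. It had 3, 5 and 5 counts in Apc1322T, at or close to the limit, and 26, 16 and 8 counts in ApcMin, corresponding to 0.11, 0.237 and 0.219 CPM and to 0.726, 0.629 and 0.253 CPM. The groups did not overlap. Ms4a1 was the only member of which this was true, 1 of 9 higher in ApcMin, where 9.06% of the 25226 genes with a count were higher without overlap and 7.10% were lower. It was below the count filter of the main test. Without the filter, its log2 fold change was 1.50 (SE 0.66, 95% interval 0.02 to 2.99, unadjusted p = 0.0476, adjusted p = 0.453, edgeR), and DESeq2 gave 1.51 (adjusted p = 0.368).

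Cd79a (chr7:24897381-24902197, plus strand) encodes the signalling chain of the B cell receptor, which is kept at a lower level in plasma cells. It stood at 4.44, 3.13 and 3.28 CPM in Apc1322T and at 3.88, 3.42 and 7.93 CPM in ApcMin. It was highest where Igha was highest, in contrast to Ms4a1. Between genotypes the log2 fold change was 0.49 (SE 0.37, 95% interval -0.39 to 1.37, adjusted p = 0.532) and 0.01 without ApcMin replicate 3. The log2 ratio of Igha to Ms4a1, a measure of plasma cell against B cell RNA, was 14.27, 12.82 and 13.21 in Apc1322T and 11.16, 11.04 and 14.13 in ApcMin, a difference of -1.33 (exact permutation p = 0.30, adjusted p = 0.50). The difference was -2.33 without ApcMin replicate 3 (exact permutation p = 0.10, the smallest possible), -0.852 without ApcMin replicate 1 and -0.789 without ApcMin replicate 2.

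**Figure D4:**
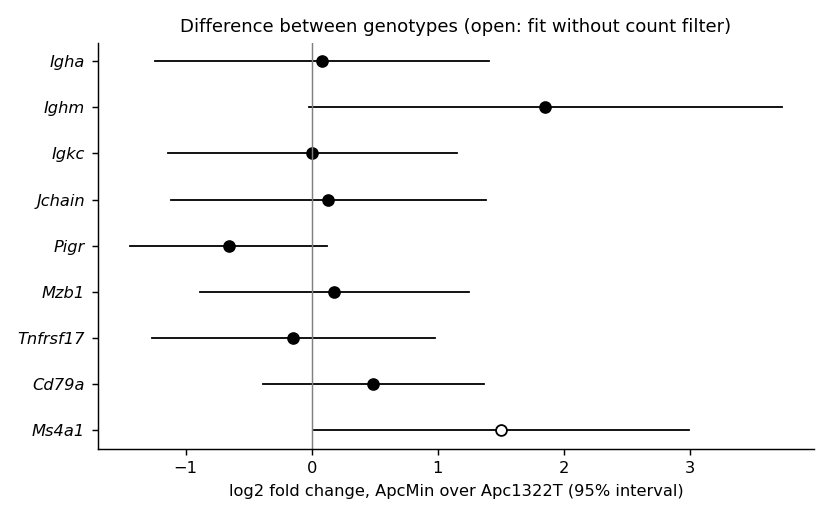
Log2 fold change, ApcMin over Apc1322T, of the 9 genes (points) with 95% intervals (lines) from edgeR, with 3 libraries per group. Intervals of the 8 tested genes include 0; the open point, Ms4a1, comes from the fit without the filter on low counts (1.50, interval 0.02 to 2.99) and its adjusted p was 0.453.

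Several further B cell genes, all of low counts, stood higher in ApcMin. Of the 17 listed, 12 were tested and 0 called, and 4 (23.5%) were higher in every ApcMin library than in every Apc1322T library, compared with 9.06% of genes with a count, while 0 were lower without overlap. These were Pax5, Cd22, Blk and Cr2. Pax5, the transcription factor that maintains B cells, had 0, 1 and 0 counts in Apc1322T and 14, 29 and 4 in ApcMin. Cd22, an inhibitory receptor with more counts, stood at 0.513, 0.427 and 0.875 CPM against 2.06, 1.73 and 1.17 CPM (log2 fold change 1.44, SE 0.41, adjusted p = 0.279). Blk, a kinase of B cell receptor signalling, had the highest log2 fold change of the 12 tested (2.63, SE 0.88, adjusted p = 0.288). Bank1, an adaptor of that signalling, had the lowest of the 12 (-0.27, SE 0.63, adjusted p = 0.853). Tnfrsf13c (-0.26), Blnk (-0.19) and Ebf1 (-0.13) were also negative. Of the 12 tested, 8 were thus positive and 4 negative, with a median of 0.46. Ighd, the delta heavy chain of naive B cells, had 21 and 23 counts in ApcMin replicates 1 and 2, and 1 or 0 counts in the other 4 libraries. With 1 library left out at a time, 4 to 8 of the 17 genes did not overlap and were higher in ApcMin, 8 of them without ApcMin replicate 3, beside 11.8% to 18.6% of genes with a count under the same omissions.

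Genes of lymphoid follicles and of M cells, the epithelial cells that cover follicles, mostly had values in the same direction. Of 15 listed genes 11 were tested and 0 called by edgeR, with 9 positive and 2 negative log2 fold changes. Of the 15, 6 (40%) were higher in ApcMin without overlap (Cxcl13, Gp2, Cr2, Clu, Ccl19 and Ccl21a), and 1 (Ltbr) was lower, beside 9.06% of genes with a count that were higher and 7.10% that were lower. Cr2 and Fcer2a are also on the B cell list, so that Cr2 is counted in both lists. Clu stood between 1320 and 2090 CPM, far above the other genes that were higher. Its log2 fold change was 0.35 (SE 0.16, adjusted p = 0.344), and which cells its RNA came from was not tested. Gp2, a receptor for bacteria on M cells, stood at 0.22, 0.237 and 0.35 CPM in Apc1322T and at 6.92, 1.18 and 4.42 CPM in ApcMin. Its log2 fold change was 3.94 (SE 0.71, adjusted p = 0.257 by edgeR and 1.5e-05 by DESeq2). Ccl21a, a chemokine that guides lymphocytes into lymphoid tissue, stood at 1.14, 0.76 and 1.49 CPM against 6.81, 4.32 and 3.41 CPM (log2 fold change 2.10, SE 0.38, adjusted p = 0.257 by edgeR and 2.46e-04 by DESeq2). DESeq2 called these 2 genes of the list. Cxcl13, the chemokine that draws B cells into follicles, stood at 0.367, 0.237 and 0.306 CPM against 1.87, 0.903 and 1.52 CPM (log2 fold change 2.22, SE 0.42, adjusted p = 0.257 by edgeR and 0.013 by DESeq2). Ccl19 had no count in Apc1322T, which allows up to 3 counts per library, and 6, 3 and 8 counts in ApcMin. Tnfrsf11a, the receptor for the M cell inducer RANKL, had the lowest log2 fold change of the 11 tested (-0.26, SE 0.14, adjusted p = 0.411). Left-out libraries gave 6 to 8 of the 15 genes higher in ApcMin without overlap, beside 11.8% to 18.6% of genes with a count.

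The levels of other leukocytes' genes are given beside these values. All 8 general leukocyte genes had positive log2 fold changes (median 0.57), and their summed level was 103 to 128 CPM in Apc1322T and 221, 149 and 120 CPM in ApcMin replicates 1, 2 and 3. Of 12 myeloid genes 11 were positive (median 0.90), and their summed level was 164 to 198 CPM in Apc1322T and 581, 158 and 218 CPM in ApcMin, so that the library with the most Ighm also had the most myeloid RNA. The lowest and highest of the myeloid list were Cd14 (-0.03) and S100a9 (1.38). T cell genes lay on both sides, 7 positive and 7 negative, from Cd8a (-0.88) to Cd5 (0.73). Their summed levels were 28.1 to 64.0 CPM in Apc1322T and 34.5 to 43.1 CPM in ApcMin. Higher in ApcMin without overlap were 3 of the 8 leukocyte genes (37.5%, Laptm5, Cd53 and Was), 1 of 12 myeloid genes (Fcgr1) and 0 of 14 T cell genes. In these lists 0 were lower without overlap, beside 9.06% of genes with a count that were higher and 7.10% that were lower. All genes of these lists were tested, and of the 16536 genes tested 11% were higher and 1647 genes lower without overlap. No gene of these 3 lists was called or at 0 in any library. Whether the make-up of the excised tissue has a part in the B cell and follicle values was not tested.

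**Figure D5:**
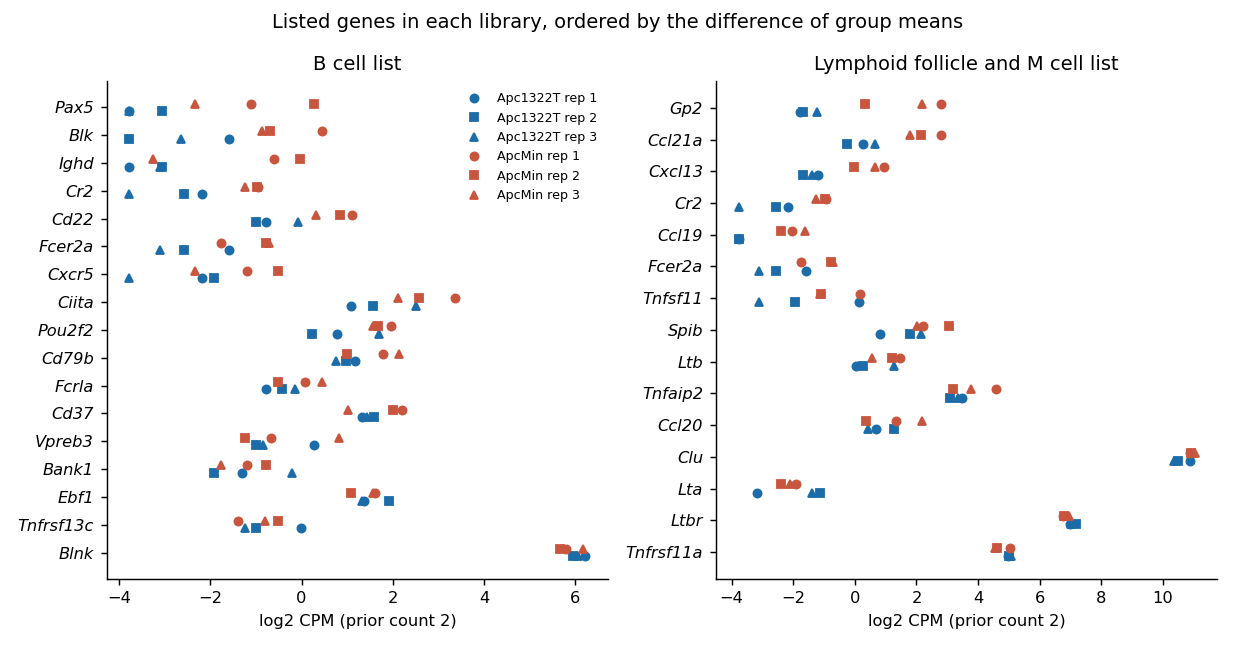
Genes of the B cell list (left) and of the lymphoid follicle and M cell list (right) as log2 CPM with a prior count of 2 (horizontal axis), 1 symbol per library, ordered by the difference of the group means. At the top of the right panel ApcMin libraries lie to the right of Apc1322T libraries without overlap, as for Gp2 (1.18 to 6.92 CPM against 0.22 to 0.35 CPM), and at the bottom the groups overlap or lie close together.

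The receptor gene Pigr (ENSMUSG00000026417, chr1:130826684-130852249, plus strand, 11 exons in the first listed transcript) stood at 2030, 1650 and 1940 CPM in Apc1322T and at 1690, 663 and 1200 CPM in ApcMin. ApcMin replicates 2 and 3 lay below all Apc1322T libraries, and ApcMin replicate 1 lay just above the lowest of them. The means were 1870 ± 199 and 1180 ± 513 CPM (SD, n = 3 each). The log2 fold change was -0.66 (SE 0.32, 95% interval -1.44 to 0.12, unadjusted p = 0.0836, adjusted p = 0.375, edgeR). It was -0.38 without ApcMin replicate 2 and -1.01 without ApcMin replicate 1, and it was negative under all 15 other settings of the test.

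Pigr did not follow its cargo in every library. Within Apc1322T, Pigr and Igha had the same order, highest in replicate 1 and lowest in replicate 2. ApcMin replicate 2 was the lowest library for both genes. In ApcMin replicate 3, the library with the highest Igha, Pigr was the second lowest, and Pigr counts were 20.6% of those of Igha there, compared with 92.3% in ApcMin replicate 1. The genes nearest to Pigr among 16371 were Map3k7cl at a distance of 0.104, Scel at 0.137, Tifa at 0.154, Ipcef1 at 0.185 and Sptbn4 at 0.213. Tifa, an adaptor of NF-kappaB signalling and the one with the most counts, stood at 41.6, 37.5 and 47.7 CPM in Apc1322T and at 37.5, 18.7 and 31.2 CPM in ApcMin. The nearest to Ms4a1 were Akr1c14 at 0.166, Rab44, Kcnma1, Rhbdl3 and Olr1, the last at 0.266. With 3 to 26 counts per library, the profile of Ms4a1 was measured with little precision, so its nearest genes are uncertain.

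Epithelial markers, given here beside the epithelial gene Pigr, had lower mean levels in ApcMin. All 12 markers had negative log2 fold changes, from -0.81 for Krt20 (SE 0.27, adjusted p = 0.288) to -0.08 for Krt18, with a median of -0.39. Of the 12, all of them tested, 7 were lower without overlap, beside 7.10% of genes with a count and 1647 of the 16536 genes tested. At an unadjusted p under 0.05, 8 were lower, beside 7.60% of genes tested, and 0 were called. Epcam, an adhesion molecule of epithelial cells, stood between 2630 and 2720 CPM in Apc1322T and between 1800 and 2220 CPM in ApcMin (log2 fold change -0.39, SE 0.12, adjusted p = 0.286). Set against the mean log2 CPM of these markers, Pigr stood at 1.244, 0.6375 and 0.8272 in Apc1322T and at 1.139, -0.3714 and 0.8506 in ApcMin. Only ApcMin replicate 2 remained apart on this scale, and the difference of -0.364 had an exact permutation p of 0.70 (adjusted p = 0.875).

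Of 17 genes that induce Pigr or carry the signal to it (interleukin 17, interferon, tumour necrosis factor and Toll-like receptor signalling), 14 were tested and 0 called. Their log2 fold changes were negative for 12 of the 14, with a median of -0.19. The cytokine genes Il17a, Il17f and Ifng were not tested, with at most 38, 9 and 2 counts in any library. Tnf, the cytokine gene that was tested, had a positive log2 fold change (0.47, SE 0.43, adjusted p = 0.605). Most of the 14 thus encode receptors and signalling proteins. Tlr4, the receptor for bacterial lipopolysaccharide, was the highest of the 14, at 5.53, 4.32 and 3.50 CPM in Apc1322T against 8.15, 7.23 and 8.43 CPM in ApcMin (log2 fold change 0.83, SE 0.22, adjusted p = 0.273). Irf1, an interferon-responsive transcription factor, was the lowest of the 14 (-0.58, SE 0.36, adjusted p = 0.459). Il17ra and Tnfrsf1a, receptors for interleukin 17 and tumour necrosis factor, were lower in ApcMin without overlap, at log2 fold changes of -0.23 and -0.32, each with an adjusted p of at least 0.288. Without overlap, 2 of the 17 were thus lower and 1 (5.88%), Tlr4, was higher. Among genes with a count, 7.10% were lower and 9.06% higher.

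Among 8 other antibody receptors, 7 were tested and 0 called. Fcgrt, the neonatal receptor that carries IgG, had the lowest log2 fold change of the 7, with 99.1, 146 and 144 CPM in Apc1322T and 87.1, 81.7 and 69.9 CPM in ApcMin (-0.70, SE 0.17, adjusted p = 0.257 by edgeR and 0.0182 by DESeq2). Fcgr1, a receptor of myeloid cells for IgG, had the highest of the 7 tested (1.27, SE 0.44, adjusted p = 0.294). Fcmr, the IgM receptor of B cells, had 2, 3 and 0 counts in Apc1322T and 11, 10 and 13 counts in ApcMin.

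Genes that direct IgA responses and the homing of IgA plasma cells to the gut showed no shared direction. Of 15 listed, 13 were tested and 0 called, 7 were positive and 6 not, with a median of 0.00. Cxcl12, a chemokine of stromal cells that holds plasma cells, was higher in ApcMin without overlap, at 13.8, 6.98 and 9.06 CPM against 24.1, 14.8 and 14.6 CPM (log2 fold change 0.84, SE 0.31, adjusted p = 0.311). Tnfsf13b, which encodes the survival factor BAFF, was lower without overlap, at 22.0 to 25.2 CPM against 17.6 to 21.3 CPM (-0.32, SE 0.11, adjusted p = 0.307). Cxcl12 was the 1 gene of the 15 (6.67%) higher without overlap, and Tnfsf13b the 1 lower. Among genes with a count, 9.06% were higher and 7.10% lower. Il6 was the highest of the 13 tested (1.58, SE 1.21, adjusted p = 0.538), with 30.6 CPM in ApcMin replicate 1 and at most 7.77 CPM elsewhere. Ccl25, the chemokine of the small intestinal epithelium, was the lowest of the 13 (-0.78, SE 0.37, adjusted p = 0.372). Ccr10, the homing receptor that IgA plasma cells carry, peaked with Igha, at 2.31 CPM in ApcMin replicate 3 and between 0.781 and 1.66 CPM in the other libraries.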

How the data were processed

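RNA of 6 adenoma libraries (3 per genotype) was sequenced on 1 lane from a strand-specific kit. The authors quantified GRCm38 transcripts with Salmon and deposited unnormalised values, which are estimated counts summed to genes. Their annotation release is not given in the sources used here. The estimated counts were rounded. Symbols came from GENCODE M21 through the Ensembl identifier for 34582 of 34866 genes. Genes were filtered with filterByExpr (minimum count 10, minimum total 15), normalised by TMM and tested in edgeR 4.0.16 (R 4.3.3) by quasi-likelihood with robust estimation, ApcMin minus Apc1322T, with Benjamini-Hochberg adjustment over all 16536 genes and a threshold of 0.01. Log2 CPM used a prior count of 2. The 5 ratios were tested by exact two-sided permutation. DESeq2 1.42.0, limma-voom 3.58.1, other scalings and filters, and each library left out were alternatives. The scripts were tested on simulated counts.

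The 9 members and the gene lists were chosen with earlier results of these data known, and their counts are descriptions. The named genes were every member, genes of the lists, with the highest and lowest log2 fold change of each, and the 5 genes most like Igha, Ms4a1 and Pigr. Intervals of shares are exact Clopper-Pearson intervals (95%). A few genes of the lists are not reported here and were left out of the counts.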

Additional observations from a re-analysis of the deposited data

How the results depend on the processing

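Of the members, 0 were called under any of the 15 settings. Over all genes, 194 were called by DESeq2, 1 (Krt14) without a filter on low counts or at an adjusted p under 0.05, and 0 to 1 with each library left out, the 1 being Fabp6 without ApcMin replicate 3. At an unadjusted p under 0.05, edgeR had 2495 genes, DESeq2 2888, and the fits with a library left out 1180 to 4117. No scaling moved the median of all genes by over 0.1. Signs of values near 0 turned: by DESeq2 Igkc was -0.02, with DESeq2's size factors in edgeR Igkc was -0.01, and by limma-voom Igha was -0.17, Igkc -0.21 and Jchain -0.13. With each library left out, Igha ranged from -0.80 to 0.41, Igkc from -0.76 to 0.29, Jchain from -0.74 to 0.43, Mzb1 from -0.50 to 0.47 and Tnfrsf17 from -0.62 to 0.07, the log2 ratio of Jchain to Igha from -0.0673 to 0.146 and that of Pigr to epithelial genes from -0.663 to 0.0917, the last without ApcMin replicate 2. The cause of these turns was not tested. The counts of B cell and follicle genes with a library left out were added after seeing the data. Deviations from the group mean correlated at -0.0139, 0.164 and -0.286 between same-numbered libraries and at -0.359 to 0.329 between differently numbered ones. The labels state no pairing, and so few values cannot decide whether there was any. With the replicate block, 0 genes were called and Igha was -0.19, Igkc -0.22, Jchain -0.14 and Mzb1 -0.01. Depth limits Ms4a1, Tnfrsf17 and most B cell genes, which had few counts.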
